A study of Mus musculus with 45 samples.

Results

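The genes described here are 10 genes of antigen presentation, taken by symbol from the 27007 genes of a count table of mouse left ventricle. They are B2m, Tap1, Tap2, Tapbp and Nlrc5 of the class I pathway, and Ciita, Cd74, H2-Aa, H2-Ab1 and H2-Eb1 of the class II pathway. All 10 were found, and all 10 were among the 15444 genes with enough reads to be tested. The tissue came from wild-type mice (strain not given in the sources used here) that were operated on within a day of birth and sampled at 4, 6 or 8 weeks of age. Sham mice had the control operation, nAAC mice had a constriction of the aorta, and Rev-nAAC mice had a reversible constriction. The time at which the reversible constriction was released is not given in the sources used here. Each of the 9 combinations of operation and age held 5 libraries, 45 in all.

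Class I molecules are carried by nearly all nucleated cells and show peptides cut from the cell's own proteins to cytotoxic T cells. B2m (beta-2 microglobulin) is their invariant light chain, Tap1 and Tap2 form the pump that moves peptides into the endoplasmic reticulum, Tapbp (tapasin) holds the empty class I molecule at that pump, and Nlrc5 is the transcriptional coactivator of class I genes. Class II molecules are made mainly by macrophages, dendritic cells and B cells and show captured peptides to helper T cells. H2-Aa and H2-Ab1 encode the alpha and beta chains of the mouse I-A molecule, H2-Eb1 encodes the beta chain of I-E, Cd74 is the invariant chain that guides class II molecules to the endosome, and Ciita is the coactivator on which class II transcription depends. Interferon gamma is the classic inducer of both coactivators.

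Nlrc5 and Ciita are known to act without binding DNA themselves, on a conserved promoter arrangement that ends in an inverted CCAAT box. RefSeq promoters (GRCm38.p6) were at hand for 5 of the 10 genes, B2m, Tap1, Tapbp, H2-Aa and H2-Eb1. They were searched on both strands, over the 250 bases before the start, for 4 motifs. CCAAT is the box itself. The letters GCAAC and the letters TGACG are parts of the X box that precedes it, and a pair of GAAA with 2 bases of any kind between them is the core of the element that interferon-activated factors bind. The 3 promoters in which an X-box motif was followed, 10 to 35 bases on, by ATTGG (the letters CCAAT on the other strand) are printed because they carry the arrangement. Each line gives the 150 bases before the start, 5′ to 3′ on the gene's strand, with the motif matches in capitals.
B2m, chr2:122147537-122147686, plus strand: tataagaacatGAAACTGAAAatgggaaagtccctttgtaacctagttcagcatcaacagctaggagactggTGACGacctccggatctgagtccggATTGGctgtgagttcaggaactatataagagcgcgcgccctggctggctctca
H2-Aa, chr17:34287824-34287973, minus strand: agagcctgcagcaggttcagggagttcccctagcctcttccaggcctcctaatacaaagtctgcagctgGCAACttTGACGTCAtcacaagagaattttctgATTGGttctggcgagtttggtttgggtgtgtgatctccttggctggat
H2-Eb1, chr17:34305717-34305866, plus strand: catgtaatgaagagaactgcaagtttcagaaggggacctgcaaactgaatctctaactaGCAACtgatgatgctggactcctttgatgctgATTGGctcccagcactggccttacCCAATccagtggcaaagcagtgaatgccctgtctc

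The arrangement was found in these 3 promoters, not in those of Tap1 and Tapbp, and in 1.73% of the 32851 promoters in the RefSeq table. The inverted CCAAT box began 53 bases before the start in B2m, 48 in H2-Aa and 59 in H2-Eb1. In H2-Aa the match TGACG overlaps its own match on the other strand, which gives the run TGACGTCA. B2m alone of the 5 held the GAAA pair, which occurred in 2.98% of all promoters. The single boxes are common, at 33.8% of promoters for CCAAT, 29.9% for GCAAC and 17.8% for TGACG. The spacing and letters were chosen with these promoters in view, and a match describes letters only.

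Library totals ran from 31586082 to 35965976 counts, and the mitochondrially encoded genes took 18.7 to 32.3% of them. From Xist and Y-linked genes, all 15 sham libraries were male, and the operated groups were mixed. At 4 weeks 3 nAAC and 2 Rev-nAAC libraries were female, at 6 weeks 4 and 2, and at 8 weeks 2 and 4. Sex therefore differs between sham and the operated groups. Replicate 1 of nAAC at 4 weeks has a treatment tag that reads sham and a title that reads nAAC, and it was grouped by its title. It and 5 further libraries stood apart in earlier results: sham 4 weeks replicate 1, nAAC 4 weeks replicate 5, Rev-nAAC 4 weeks replicate 2, Rev-nAAC 6 weeks replicate 4 and Rev-nAAC 8 weeks replicate 4. Counts of called genes without these 6 libraries are given beside the main counts. Nothing in the labels says whether libraries of a group came from separate animals, so p-values measure the spread between these libraries. The heart is named in the labels, and cardiomyocyte markers such as Myh6 and Tnnt2 summed to between 31519.5 and 66139 CPM in every library (CPM are a gene's counts scaled to the normalised total of its library).

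Per kilobase of exon, B2m was by far the most abundant of the 10 genes and Ciita the least. Mean levels for B2m ran from 209 CPM per kilobase in sham at 8 weeks to 612 in nAAC at 6 weeks. Cd74 followed, between 28.8 and 73.4 CPM per kilobase. Ciita stayed between 0.0811 and 0.282 CPM per kilobase, with as few as 8 counts in a library. No member was at 0 in any library. In every one of the 10 genes the lowest group mean was that of sham at 8 weeks. The highest was nAAC at 6 weeks in 7 genes, Rev-nAAC at 4 weeks for Tap2, nAAC at 4 weeks for Tapbp and Rev-nAAC at 6 weeks for H2-Eb1. The ratio of highest to lowest group mean was 1.46 for Tap2 and 1.49 for Tapbp, and between 2.55 (Cd74) and 3.48 (Ciita) for the other 8 genes. When the 9 groups were put in order of their means, each of the 8 neighbouring pairs overlapped in every gene.

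The genes lie on GRCm38 as follows. Tap1, Tap2, Tapbp, H2-Aa, H2-Ab1 and H2-Eb1 are in the major histocompatibility complex on chromosome 17, between 33915899 and 34316674. B2m is at 122147686 to 122153083 on chromosome 2, Nlrc5 at 94434356 to 94527272 on chromosome 8, Ciita at 10480059 to 10528418 on chromosome 16 and Cd74 at 60803848 to 60812652 on chromosome 18. Close copies can split reads between H2 genes. In the GENCODE transcripts, 0 of the stretches of 50 bases in B2m, Nlrc5, Ciita, Cd74, H2-Ab1 and H2-Eb1 occur on the same strand of another gene's transcript, against 0.488% for H2-Aa, 0.442% for Tap1, 0.655% for Tap2 and 2.87% for Tapbp. Tapbp also overlaps Zbtb22 on its own strand over 3422 bases, and Zbtb22 stood at 10.7 to 19.7 CPM. Whether the counting used strand is not given. On the opposite strand Tapbp shares 21.1% of its stretches with Gm19412, which stood at 0.0300 to 0.823 CPM, and Tap2 shares 11.6% with Gm15821, which was not analysed here. Ciita overlaps the gene Dexi on the opposite strand and shares 1.46% of its stretches with it, and Dexi was far more abundant, at 15.5 to 33.2 CPM against 0.228 to 3.90 for Ciita, so Ciita counts may hold Dexi reads. B2m lies inside the locus of Patl2 on the opposite strand, which reached at most 0.0561 CPM.

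Of the 5 class I genes, B2m, Tap2 and Tapbp were higher under lasting constriction than in sham at each age, and Tap1 and Nlrc5 at 6 and 8 weeks. B2m stood at 323, 289, 257, 360.4 and 254 CPM in the 5 sham libraries at 4 weeks and at 386, 409, 461, 408 and 671 in nAAC. No nAAC library reached down to the sham range, and replicate 5 was well above the rest. The difference, on the log2 scale, was 0.65 ± 0.20 (SE), with an adjusted p of 0.0071 from edgeR's quasi-likelihood test, Benjamini-Hochberg adjusted over the 15444 genes. Genes are said below to have risen, fallen or been higher or lower by the test when this adjusted p was under 0.05.

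At 6 weeks B2m read 144, 223, 179, 262 and 187 CPM in sham and 403, 529, 717, 561 and 422 in nAAC. The groups were far apart, the lowest nAAC library lying above the highest sham library. The difference was 1.40 ± 0.20 (adjusted p = 2.7e-07), a 2.65-fold higher level. At 8 weeks sham read 155, 150.0, 271, 166 and 156 CPM and nAAC 338, 404, 349.6, 446 and 265. The groups met only because sham replicate 3 lay above the lowest nAAC library. The difference was 1.0 ± 0.20 (adjusted p = 5.7e-05), a 2.01-fold higher level.

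**Figure D1:**
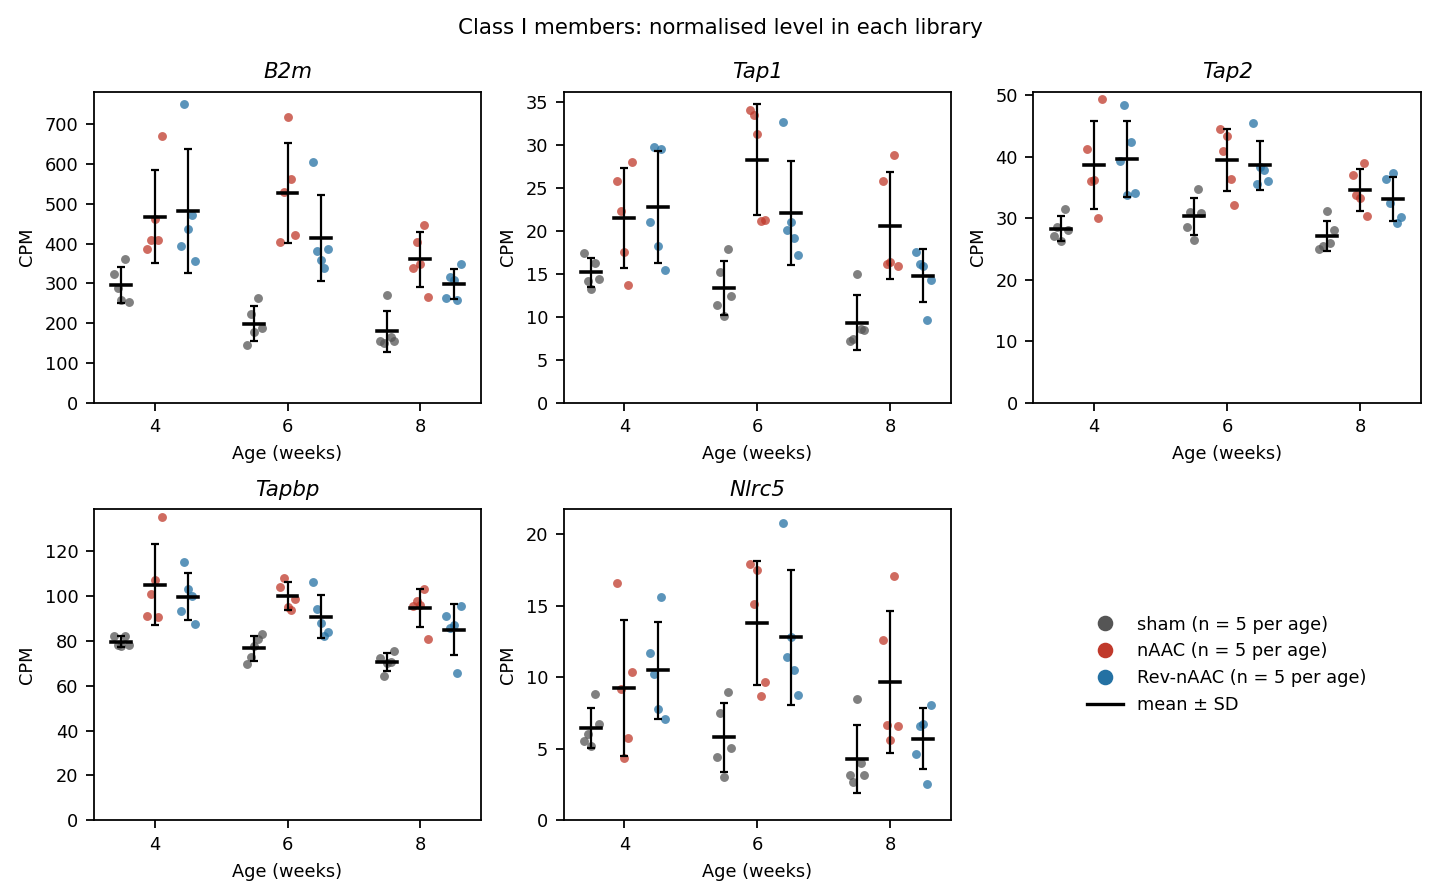
Level in CPM of B2m, Tap1, Tap2, Tapbp and Nlrc5 in each of 45 libraries against age in weeks, with points for libraries (5 per group) coloured by operation and black bars for the mean ± SD. The nAAC and Rev-nAAC means lie above the sham mean at each age in all 5 genes, and in sham at 8 weeks replicate 3 lies high for B2m (271 CPM), Tap1 (15.0 CPM) and Nlrc5 (8.50 CPM).

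Tap1 and Tap2, the peptide pump, moved by different amounts. Tap1 stood at 11.4, 15.2, 10.1, 17.9 and 12.4 CPM in sham at 6 weeks and at 34.1, 33.5, 31.3, 21.2 and 21.3 in nAAC, again without overlap. Its difference from sham was 1.08 ± 0.23 at 6 weeks (adjusted p = 1.4e-04) and 1.14 ± 0.23 at 8 weeks (adjusted p = 7.8e-05). At 4 weeks it was 0.50 ± 0.23 and missed the threshold (adjusted p = 0.071), which it passed without nAAC replicate 4 (0.63, adjusted p = 0.027). Tap2 was higher by 0.45 ± 0.11, 0.38 ± 0.11 and 0.35 ± 0.11 at 4, 6 and 8 weeks, and passed at each age (adjusted p = 9.6e-04, 0.0033 and 0.0062). Tapbp, the tapasin gene, was higher by 0.40 ± 0.09, 0.38 ± 0.09 and 0.42 ± 0.09, with no overlap of nAAC and sham libraries at any age. Its 5 sham libraries at 8 weeks ran from 64.4 to 75.6 CPM and its nAAC libraries from 80.7 to 103.

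The 2 coactivators had wider spreads. Nlrc5 read 4.41, 7.52, 3.02, 8.98 and 5.07 CPM in sham at 6 weeks and 17.9, 15.1, 17.5, 8.71 and 9.70 in nAAC, where the lowest nAAC library fell just below the highest sham library. It was higher by 1.25 ± 0.36 at 6 weeks (adjusted p = 0.0042) and by 1.17 ± 0.37 at 8 weeks (adjusted p = 0.0078). The 8-week call ended without nAAC replicate 4, at 0.87 and an adjusted p of 0.055. At 4 weeks Nlrc5 differed by 0.52 ± 0.36 (adjusted p = 0.25), with nAAC libraries spread from 4.38 to 16.6 CPM.

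Ciita, the class II coactivator, followed another course. At 4 weeks it differed by -0.37 ± 0.34 (adjusted p = 0.40). It was higher in nAAC by 1.07 ± 0.35 at 6 weeks (adjusted p = 0.0098) and by 1.71 ± 0.36 at 8 weeks (adjusted p = 1.3e-04). At 8 weeks sham read 0.493, 0.750, 1.40, 0.504 and 0.717 CPM and nAAC 2.79, 1.57, 1.75, 3.48 and 3.13. All nAAC libraries lay above all sham libraries. The 6-week call ended when only male libraries were used, which left 1 nAAC library (adjusted p = 0.12). Dexi, the opposite-strand neighbour, was higher in nAAC by 0.52 ± 0.10, 0.34 ± 0.10 and 0.21 ± 0.10 at 4, 6 and 8 weeks (adjusted p = 0.00011, 0.0059 and 0.095), and its part in the Ciita counts was not tested.

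The 4 class II structural genes were called between nAAC and sham at 8 weeks and at neither earlier age. H2-Aa, the I-A alpha chain, read 46.5, 61.3, 51.8, 67.9 and 42.6 CPM in sham at 4 weeks and 38.8, 59.7, 41.6, 35.4 and 81.9 in nAAC. The groups overlapped fully, with a difference of -0.07 ± 0.25 (adjusted p = 0.84, 95% interval -0.57 to 0.43). At 6 weeks sham read 33.2, 62.4, 55.6, 65.1 and 47.6 CPM and nAAC 60.3, 48.9, 81.0, 43.5 and 54.3. The difference was 0.13 ± 0.25 (adjusted p = 0.70, interval -0.37 to 0.62).

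At 8 weeks H2-Aa read 20.8, 21.9, 22.6, 15.2 and 13.9 CPM in sham and 43.9, 38.9, 39.4, 58.4 and 36.4 in nAAC. Every nAAC library was above every sham library. The difference was 1.20 ± 0.25 (adjusted p = 1.5e-04). H2-Ab1 differed by 1.33 ± 0.26 (adjusted p = 5.4e-05), H2-Eb1 by 1.02 ± 0.26 (adjusted p = 0.0016) and Cd74 by 0.89 ± 0.25 (adjusted p = 0.0035), each without overlap. At 4 and 6 weeks these 3 genes differed by between -0.03 and 0.23, and their 95% intervals lay between -0.54 and 0.74.

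Between nAAC and sham, then, 3 of the 10 genes were higher at 4 weeks, where 19.5% of all tested genes were higher by the same test. At 6 weeks 6 were higher, against 24.5% of all genes, and at 8 weeks all 10 were higher, against 23.8%. No member was lower at any age, where 21.2%, 23.8% and 23.5% of all genes were. The counts without the 6 libraries that stood apart were the same, at 3, 6 and 10. None of those libraries was from sham or nAAC at 6 or 8 weeks, so the leave-out puts only the 4-week count to the test. The median difference of the 10 genes was 0.27, 0.38 and 1.08, where that of all tested genes was -0.03, 0.02 and 0.02. With sex as a covariate the counts were again 3, 6 and 10, and with male libraries alone, of which nAAC had 1 at 6 weeks, 3, 5 and 10. The male-only fit takes a single library to vary as those of the other groups do. Sham held no female libraries, so the sex term of the covariate fit rests on the operated libraries and is taken to hold in sham.

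**Figure D2:**
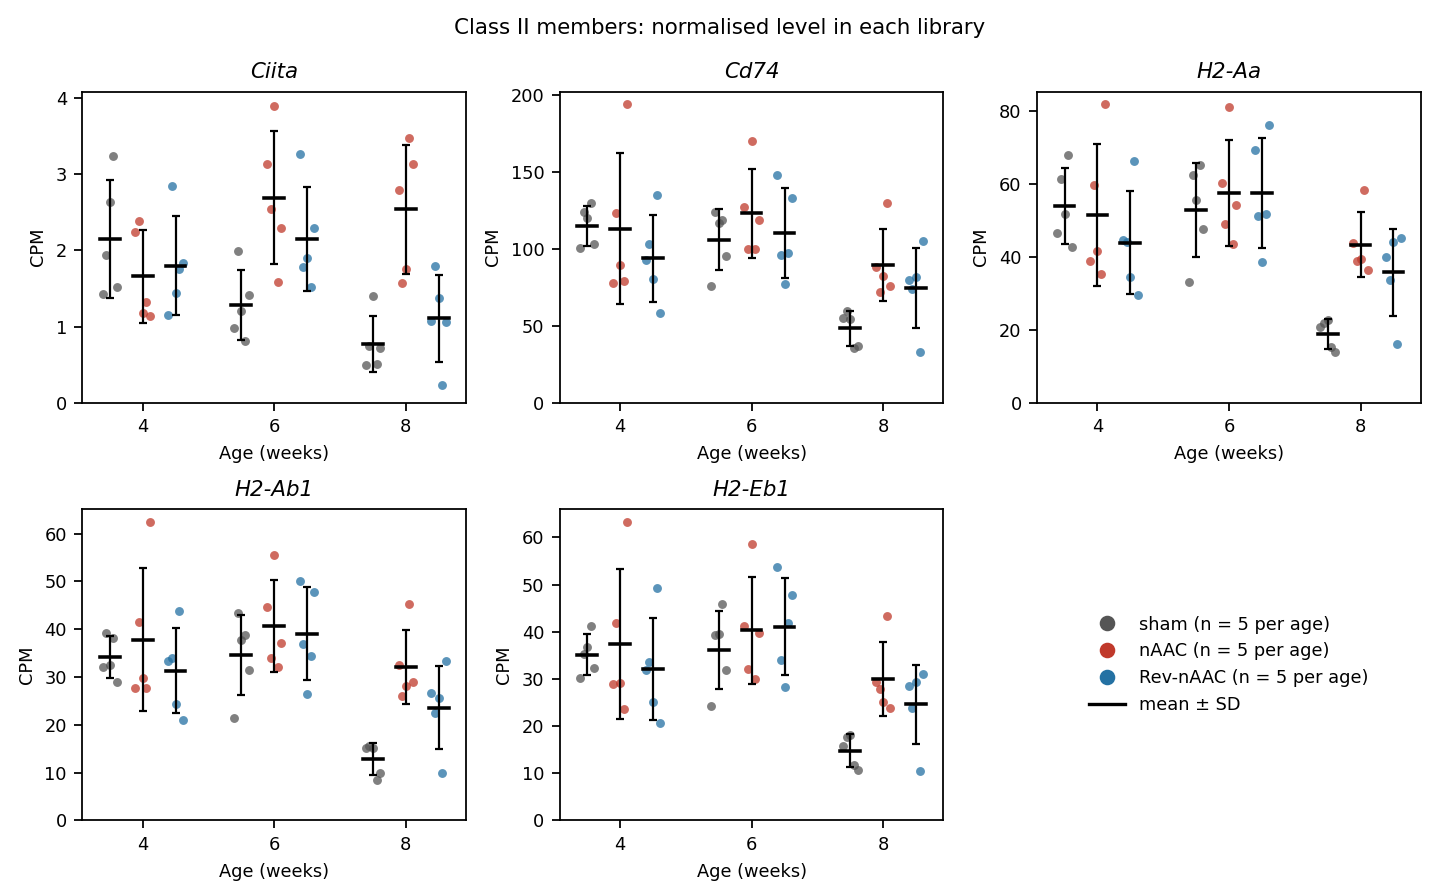
Level in CPM of Ciita, Cd74, H2-Aa, H2-Ab1 and H2-Eb1 in each of 45 libraries against age in weeks, with points for libraries (5 per group) coloured by operation and black bars for the mean ± SD. In sham the 4 structural genes are low at 8 weeks, where H2-Aa averages 18.9 CPM against 52.8 CPM at 6 weeks, while nAAC averages 43.4 CPM and Rev-nAAC 35.8 CPM at 8 weeks.

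The 8-week difference in class II genes went with lower sham levels at that age. From 6 to 8 weeks, sham fell by 1.48 ± 0.25 on the log2 scale in H2-Aa (adjusted p = 9.2e-04), by 1.43 ± 0.26 in H2-Ab1 (0.0022), by 1.29 ± 0.26 in H2-Eb1 (0.0074) and by 1.13 ± 0.25 in Cd74 (0.013). The libraries of both ages did not overlap in any of the 4 genes. For Cd74 the 6-week sham libraries read 76.0, 124, 117, 119 and 95.4 CPM and the 8-week ones 55.3, 59.8, 54.6, 35.4 and 36.8. Its call ended without sham 8 weeks replicate 4, at -1.03 and an adjusted p of 0.058. Few genes changed over this step, with 0.771% of those tested lower at 8 weeks. The count of 4 members was the same without the 6 libraries that stood apart, but none of those was a sham library of 6 or 8 weeks. B2m, Tap1, Tap2, Tapbp, Nlrc5 and Ciita differed by between -0.72 (Ciita) and -0.12 (Tapbp) in this step and were not called. In nAAC the same step gave -0.41 ± 0.25 for H2-Aa, -0.34 ± 0.25 for H2-Ab1, -0.43 ± 0.26 for H2-Eb1 and -0.46 ± 0.25 for Cd74, with no call (adjusted p from 0.66 to 0.79). Of all 15444 tested genes 0 were called in nAAC over this step, so the lack of a call is not particular to these 4. B2m differed by -0.55 ± 0.20 and Nlrc5 by -0.51 ± 0.35 (adjusted p = 0.42 and 0.77), and Tap1, Tap2, Tapbp and Ciita by between -0.46 and -0.08. Of the 10 genes, 2 had an unadjusted p under 0.05 in that step, and DESeq2 and limma voom each called 0. So did the fit without the 6 libraries, none of which was an nAAC library of 6 or 8 weeks.

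Whether the nAAC effect itself changed with age was tested as an interaction. From 4 to 8 weeks it grew by 2.09 ± 0.50 in Ciita (adjusted p = 0.0043), by 1.27 ± 0.35 in H2-Aa (0.014) and by 1.18 ± 0.36 in H2-Ab1 (0.024), where 6.86% of all genes had an effect that grew. H2-Eb1 (0.93 ± 0.37, adjusted p = 0.084) and Cd74 (0.92 ± 0.35, 0.072) missed the threshold, as did Nlrc5 (0.66 ± 0.51), Tap1 (0.64 ± 0.32), B2m (0.35 ± 0.28), Tapbp (0.02 ± 0.13) and Tap2 (-0.09 ± 0.15). The count of 3 became 5 without nAAC 4 weeks replicate 5 and also 5 without the 6 libraries that stood apart, since Cd74 and H2-Eb1 then passed. The call of H2-Ab1 ended without sham 8 weeks replicate 4 (1.04, adjusted p = 0.053) and without nAAC 8 weeks replicate 4 (1.03, adjusted p = 0.061). From 4 to 6 weeks the effect grew in Ciita alone by the test (1.45 ± 0.49, adjusted p = 0.034), with 8.96% of all genes called in that direction. That call ended without sham 4 weeks replicate 3 or 4, sham 6 weeks replicate 1, 3 or 4, nAAC 4 weeks replicate 3, 4 or 5 or nAAC 6 weeks replicate 1 or 3, with values of 1.25 to 1.43 and adjusted p between 0.051 and 0.085. B2m missed the threshold at 0.75 ± 0.28 (adjusted p = 0.055). It passed without sham 6 weeks replicate 4, nAAC 4 weeks replicate 5 or nAAC 6 weeks replicate 1 or 5 (0.80 to 0.90, adjusted p between 0.02 and 0.047) and without the 6 libraries (0.83, adjusted p = 0.035). Nlrc5 and Tap1 differed by 0.73 ± 0.51 and 0.58 ± 0.32, and Tap2, Tapbp and the 4 class II structural genes by between -0.07 and 0.25. The count of 1 was thus 0 or 2 in 8 of these leave-outs, and 2 without the 6 libraries.

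Between 6 and 8 weeks the nAAC effect on H2-Aa grew by 1.07 ± 0.35 and on H2-Ab1 by 1.09 ± 0.36, and neither passed (adjusted p = 0.26 for each), as only 0.0583% of all genes did. Of the 10 members, 0 were called, 3 had an unadjusted p under 0.05, DESeq2 called 0 and limma voom called 2, H2-Aa and H2-Ab1. Without the 6 libraries, none of them from sham or nAAC at 6 or 8 weeks, 0 were called. H2-Eb1, Cd74 and Ciita differed by 0.86 ± 0.37, 0.67 ± 0.35 and 0.64 ± 0.49, B2m by -0.40 ± 0.28, and Tap1, Tap2, Tapbp and Nlrc5 by between -0.08 and 0.06. For B2m, Tap1, Tap2, Tapbp and Nlrc5 no change of the nAAC effect between ages passed. A larger nAAC effect at 8 than at 4 weeks was thus called for Ciita, H2-Aa and H2-Ab1, and for none of them at 8 against 6 weeks. With male libraries alone, the growth from 4 to 8 weeks was 1.15 in H2-Aa and 1.11 in H2-Ab1. Both then missed the threshold.

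Reversible and lasting constriction were compared next, to see how far the 10 genes in Rev-nAAC hearts differed from those in nAAC hearts. At 4, 6 and 8 weeks 1.76%, 12.1% and 16.0% of all genes were lower in Rev-nAAC, and 122, 2136 and 2612 of the 15444 tested were higher. Of the 10 genes, 0 were called at 4 weeks, 0 at 6 weeks and 1, which was lower, at 8 weeks. At an unadjusted p under 0.05 there were 0, 0 and 3 genes, and DESeq2 and limma voom each called 0, 0 and 1. Without the 6 libraries that stood apart the counts were also 0, 0 and 1.

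The exception was Ciita at 8 weeks. It read 2.79, 1.57, 1.75, 3.48 and 3.13 CPM in nAAC and 1.07, 1.79, 1.38, 0.228 and 1.06 in Rev-nAAC, where replicate 4 was far below the others and replicate 2 lay inside the nAAC range. The difference was -1.20 ± 0.35 (adjusted p = 0.0070). It was -0.95 (adjusted p = 0.017) without the 6 libraries, among them that replicate 4. Among male libraries, of which Rev-nAAC had 1, it was -1.23 and not called (adjusted p = 0.24).

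For the other genes the intervals show what these data allow. The difference in B2m between Rev-nAAC and nAAC was 0.05 at 4 weeks (95% interval -0.35 to 0.44), -0.35 at 6 weeks (-0.74 to 0.05) and -0.27 at 8 weeks (-0.67 to 0.13). Without Rev-nAAC 6 weeks replicate 1, which read 604 CPM where the other 4 libraries read 339.7 to 386, B2m was lower at 6 weeks (-0.52, adjusted p = 0.048). Tap1 and Nlrc5 differed by -0.48 ± 0.22 and -0.76 ± 0.36 at 8 weeks (adjusted p = 0.094 and 0.099). The narrowest intervals were those of Tap2 and Tapbp, at 8 weeks -0.28 to 0.15 and -0.34 to 0.03. H2-Aa differed by -0.28 ± 0.25 at 8 weeks, with an interval of -0.78 to 0.22, and H2-Ab1, H2-Eb1 and Cd74 by -0.44, -0.28 and -0.26. At 6 weeks Tap1 differed by -0.36 ± 0.22, Ciita by -0.32 ± 0.34, Cd74 by -0.16 ± 0.25, Tapbp by -0.14 ± 0.09 and Nlrc5 by -0.10 ± 0.35. Tap2, H2-Aa, H2-Ab1 and H2-Eb1 lay between -0.05 and 0.03 at that age. At 4 weeks Nlrc5, Ciita, Tap1, Tap2 and Tapbp differed by 0.18, 0.12, 0.09, 0.04 and -0.07, and H2-Ab1, Cd74, H2-Aa and H2-Eb1 by -0.27, -0.26, -0.23 and -0.22.

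**Figure D3:**
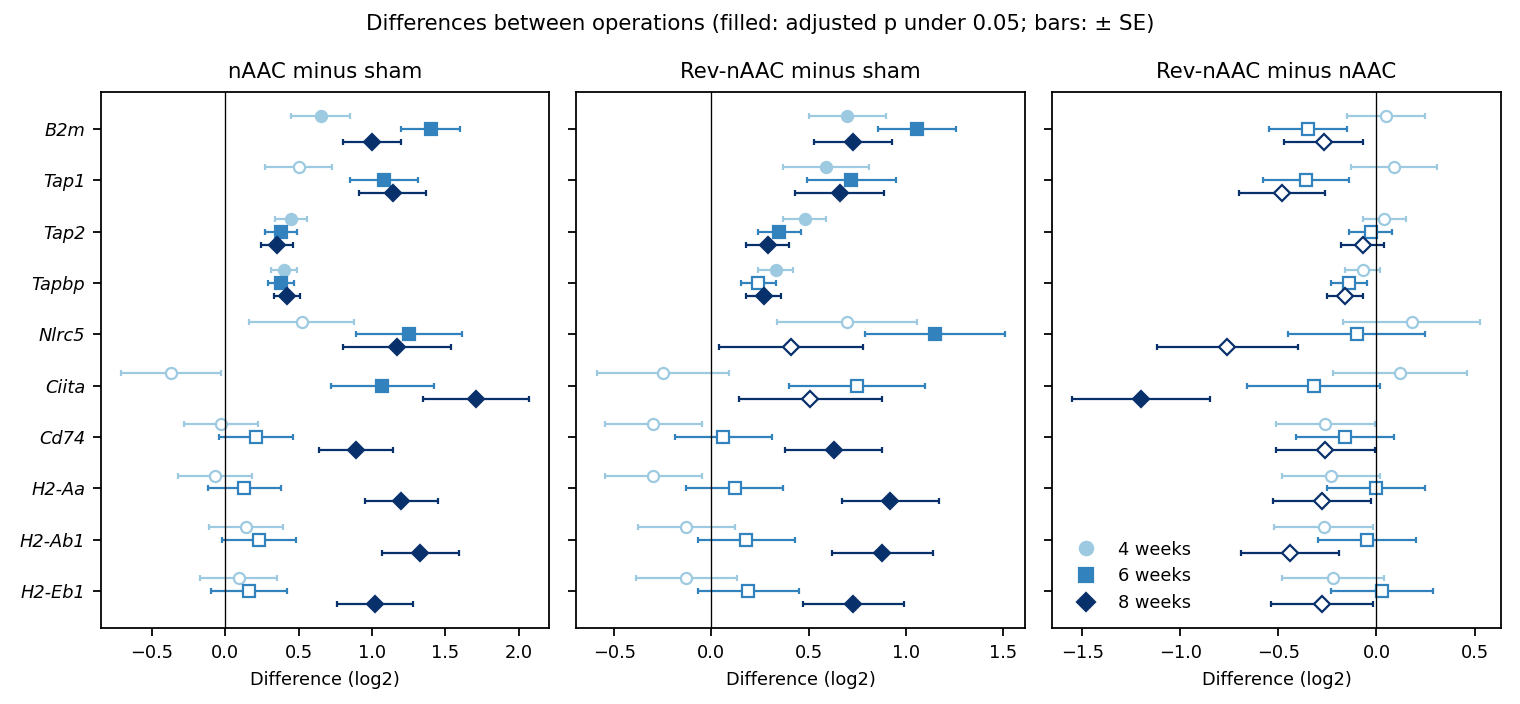
Log2 differences of the 10 genes between operations at 4, 6 and 8 weeks with bars of ± SE, filled where the adjusted p was under 0.05. In the third panel only Ciita at 8 weeks is filled (-1.20), while the first panel has 3, 6 and 10 filled symbols at 4, 6 and 8 weeks.

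Against sham, B2m, Tap1 and Tap2 were higher in Rev-nAAC hearts at each age, Tapbp at 4 and 8 weeks and Nlrc5 at 6 weeks, and several of these calls rested on single libraries. These comparisons use the same sham libraries as those of nAAC with sham, so the values are set side by side and not correlated. At 4 weeks B2m (0.70 ± 0.20, adjusted p = 0.0070), Tap1 (0.59 ± 0.22, 0.049), Tap2 (0.48 ± 0.11, 8.3e-04) and Tapbp (0.33 ± 0.09, 0.0074) were higher, 4 of 10 where 12.2% of all genes were. Nlrc5 differed by 0.70 ± 0.36 (adjusted p = 0.16) and Ciita by -0.25 ± 0.34 (0.64), and the 4 class II structural genes by between -0.30 and -0.13. B2m in Rev-nAAC read 394, 750.4, 437, 472 and 357 CPM, and replicate 2, the highest, was the library richest in red cell transcripts. Without it B2m and Tap1 were no longer called (0.50, adjusted p = 0.061, and 0.49, adjusted p = 0.15), which left 2 genes. Without the 6 libraries 3 were called, as Tap1 missed the threshold (adjusted p = 0.10). The Tap1 call also ended without any one of the 5 sham libraries, without Rev-nAAC replicate 4 and with sex as a covariate.

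At 6 weeks B2m (1.06 ± 0.20, adjusted p = 3.2e-04), Nlrc5 (1.15 ± 0.36, 0.024), Tap1 (0.72 ± 0.23, 0.024) and Tap2 (0.35 ± 0.11, 0.021) were higher, against 8.66% of all genes. The count of 4 fell to 1, leaving B2m, without sham replicate 1, sham replicate 3 or Rev-nAAC replicate 1, and to 2 without sham replicate 5. It was 6 without the 6 libraries that stood apart, with Tapbp and Ciita added. In the fit of all libraries Tapbp differed by 0.24 ± 0.09 (adjusted p = 0.062) and Ciita by 0.75 ± 0.35 (0.14). The class II structural genes differed by between 0.06 and 0.19.

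At 8 weeks all but Nlrc5 (0.41 ± 0.37) and Ciita (0.51 ± 0.37) were higher, 8 of 10 against 18.3% of all genes. H2-Aa read 39.9, 33.6, 44.2, 16.2 and 45.3 CPM in Rev-nAAC. Of these only replicate 4 lay within the sham range of 13.9 to 22.6. H2-Aa was higher by 0.92 ± 0.25 (adjusted p = 0.0037), H2-Ab1 by 0.88 ± 0.26 (0.0066), B2m by 0.73 ± 0.20 (0.0032), H2-Eb1 by 0.73 ± 0.26 (0.027), Tap1 by 0.66 ± 0.23 (0.023), Cd74 by 0.63 ± 0.25 (0.046), Tap2 by 0.29 ± 0.11 (0.033) and Tapbp by 0.27 ± 0.09 (0.021). The count was again 8 without the 6 libraries. It fell to 3 without Rev-nAAC replicate 1, to 4 without sham replicate 4 or 5, and to 5 without sham replicate 1 or 2 or without Rev-nAAC replicate 2, 3 or 5. With sex as a covariate it was 4. B2m, H2-Aa and H2-Ab1 kept their calls in each of these. With male libraries alone, of which Rev-nAAC had 1, 6 were called.

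Other steps with age showed little by the test. In sham B2m fell by 0.58 ± 0.20 on the log2 scale from 4 to 6 weeks (adjusted p = 0.037), the single call of 10 where 9.58% of all genes fell. It was lost (adjusted p between 0.055 and 0.12) without sham 4 weeks replicate 1, 2 or 4 or sham 6 weeks replicate 1, 3 or 5. Without the 6 libraries 1 was called. Ciita differed by -0.75 ± 0.35 (adjusted p = 0.14) and the other 8 genes by between -0.18 (Tap1) and 0.10 (Tap2). From 4 to 6 weeks in nAAC and in Rev-nAAC, 0 members were called, also without the 6 libraries. At an unadjusted p under 0.05 these had 1 and 0 genes, and DESeq2 and limma voom called 0. Few of all 15444 tested genes were called in these steps, 65 higher and 123 lower in nAAC and 14 higher and 52 lower in Rev-nAAC. In nAAC Ciita differed by 0.70 ± 0.34, Nlrc5 by 0.58 ± 0.35 and Tap1 by 0.40 ± 0.22, and B2m, Tap2, Tapbp, Cd74, H2-Aa, H2-Ab1 and H2-Eb1 by between -0.07 and 0.17. In Rev-nAAC the class II structural genes differed by 0.23 to 0.39, Nlrc5 and Ciita by 0.30 ± 0.35 and 0.25 ± 0.34, and B2m, Tap1, Tap2 and Tapbp by between -0.22 and -0.03. From 6 to 8 weeks in Rev-nAAC, Nlrc5 fell by 1.17 ± 0.36 (adjusted p = 0.036), where 3.96% of all genes fell. Its 6-week libraries read 20.8, 11.4, 12.8, 10.5 and 8.73 CPM and its 8-week libraries 4.63, 6.61, 6.75, 2.56 and 8.04, without overlap.

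That call was lost without Rev-nAAC 6 weeks replicate 1, 2 or 3, without Rev-nAAC 8 weeks replicate 1, 2, 3 or 4, and without the 6 libraries (-1.05, adjusted p = 0.11). The count of 1 was 0 without Rev-nAAC 6 weeks replicate 1 or 2 or Rev-nAAC 8 weeks replicate 1, 2, 3 or 4, 2 without Rev-nAAC 6 weeks replicate 3 and 4 without Rev-nAAC 8 weeks replicate 5. All but Tapbp had an unadjusted p under 0.05 in this step, with values besides Nlrc5 of -0.96 in Ciita, -0.74 in H2-Eb1, -0.73 in H2-Ab1, -0.68 in H2-Aa, -0.58 in Tap1, -0.56 in Cd74, -0.47 in B2m and -0.22 in Tap2. Tapbp differed by -0.09 ± 0.09. DESeq2 called 5 members and limma voom 2.

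Library to library within a group, the class II structural genes moved nearly as a unit. Over the 45 libraries, Pearson's r between deviations of log2 CPM from the group means was 0.95 to 0.98 for the 6 pairs among Cd74, H2-Aa, H2-Ab1 and H2-Eb1. The ratio of H2-Ab1 to H2-Aa counts stayed between 0.554 and 0.794 in all libraries, and that of H2-Eb1 to H2-Aa between 0.576 and 0.807. The ratio of Cd74 to H2-Aa was 2.33 to 2.73 in sham at 8 weeks and 1.74 to 2.42 elsewhere. Among the 5 class I genes r was 0.38 to 0.87 with a median of 0.62, the highest being those of Tap1 with Tap2 and Tap1 with Nlrc5. Between the class I genes and the class II structural genes it was 0.51 to 0.62. Ciita had r of 0.50 to 0.53 with the 4 class II structural genes and 0.26 to 0.58 with the class I genes. Libraries of a group share their normalisation and differ in cell makeup, and these correlations are given without a test.

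**Figure D4:**
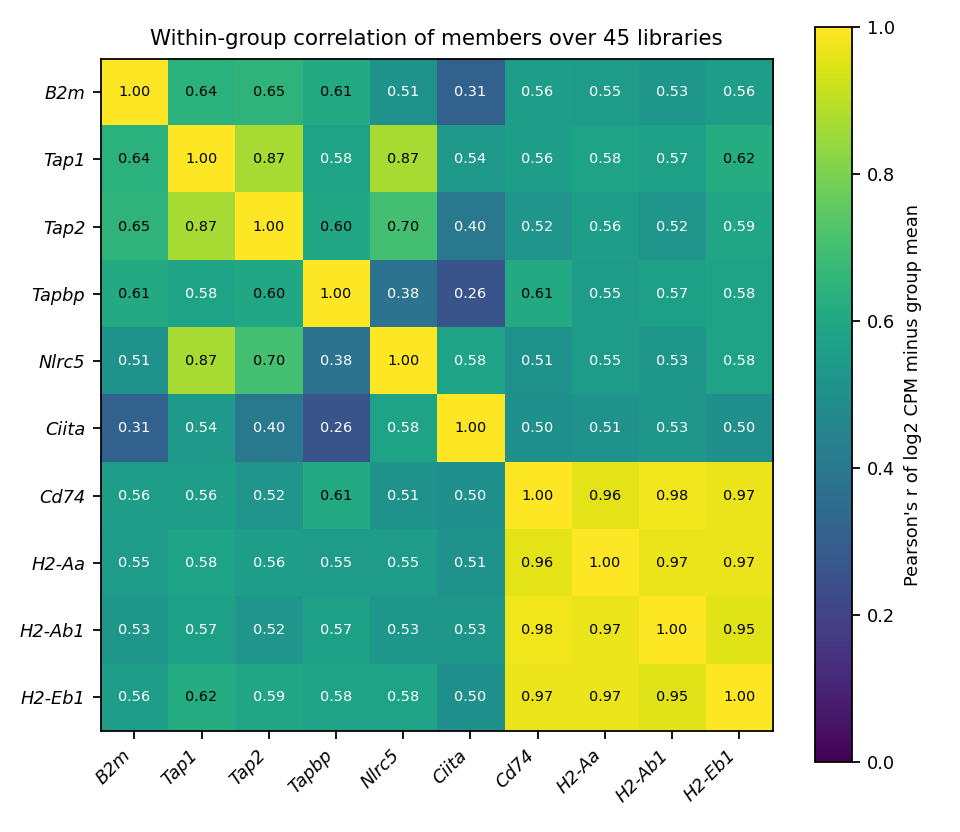
Pearson's r between each pair of the 10 genes over 45 libraries, from log2 CPM minus the group mean, on a colour scale from 0 to 1. Cd74, H2-Aa, H2-Ab1 and H2-Eb1 form a block of 0.95 to 0.98, and Ciita has 0.50 to 0.53 with them.

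Of all other tested genes, those closest to B2m in the same measure were class I heavy chain genes, H2-D1 (r = 0.93), H2-K1 (0.87) and H2-T22 (0.85), then Psmb8 (0.77), a subunit of the immunoproteasome, and Nmi (0.75). Among the genes closest to Nlrc5 were Irgm2 (0.89), Tgtp2 (0.89), Gbp4 (0.84) and Irgm1 (0.83), which encode interferon-inducible GTPases. Cd74 was closest to H2-DMa (0.85) and H2-DMb1 (0.83), the chains of the molecule that exchanges peptides on class II, then Laptm5, Cxcl9 and Fgd2 (0.71 each). Ciita had weaker neighbours, Gbp9 (0.69), Gm52888 (0.67), Trim21 (0.65), Gbp4 (0.64) and Gbp2 (0.63). Without the 2 libraries farthest from the median, r was 0.91 for B2m with H2-D1, 0.87 for Nlrc5 with Irgm2, 0.78 for Cd74 with H2-DMa and 0.56 for Ciita with Gbp9.

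The class I heavy chains, which pair with B2m, were higher in nAAC than in sham in 6 of 10 tested genes at 4 weeks, 8 at 6 weeks and 9 at 8 weeks, with 1, 0 and 0 lower. Among all genes 19.5%, 24.5% and 23.8% were higher and 21.2%, 23.8% and 23.5% lower. The list median was 0.56, 1.05 and 0.78, against all-gene medians of -0.03, 0.02 and 0.02. H2-K1, a classical heavy chain, was higher by 0.68 ± 0.20, 1.22 ± 0.20 and 0.83 ± 0.20 at the 3 ages, and H2-T23, a non-classical one, by 0.77 ± 0.17, 1.01 ± 0.18 and 1.29 ± 0.18. H2-T24 was lower at 4 weeks (-0.71 ± 0.19). Against sham, Rev-nAAC was higher in 7, 8 and 7 of these 10 genes, where 12.2%, 8.66% and 18.3% of all genes were. In Rev-nAAC against nAAC, 0 of the 10 heavy chain genes were called in either direction at each age. Among all genes 1.76%, 12.1% and 16.0% were lower in that comparison, and 122, 2136 and 2612 of 15444 were higher. Heavy chain genes are near-identical in parts, so reads may be split among them.

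Of 10 genes that supply and load peptides, 4, 4 and 3 were higher in nAAC than in sham and 3, 2 and 1 lower. Among all genes the shares were 19.5%, 24.5% and 23.8% higher and 21.2%, 23.8% and 23.5% lower. The immunoproteasome subunits Psmb10 (0.75 ± 0.11, 0.60 ± 0.11 and 0.44 ± 0.11) and Psmb9 (0.64 ± 0.20, 0.88 ± 0.21 and 0.87 ± 0.21) were among the higher at each age. Psme1, of the proteasome activator, was lower throughout (-0.52 ± 0.13, -0.67 ± 0.13 and -0.64 ± 0.13). Psmb9 overlaps Tap1 on the opposite strand and shares 3.33% of the 50-base stretches of Tap1.

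Accessory genes of the class II pathway were higher in nAAC than in sham in 1 of 13 tested genes at 4 weeks, 11 at 6 weeks and 9 at 8 weeks, with 0, 0 and 1 lower. Among all genes 19.5%, 24.5% and 23.8% were higher and 21.2%, 23.8% and 23.5% lower. At 6 weeks the list median was 0.77, where the 4 class II structural genes differed by 0.13 to 0.23. H2-Ob, a chain of the inhibitor of peptide exchange, was higher by 1.77 ± 0.36 at 6 weeks and 2.47 ± 0.41 at 8 weeks, and Ctss, the protease cathepsin S that trims the invariant chain, by 1.05 ± 0.22 at 6 weeks. In sham from 6 to 8 weeks 1 of these 13 genes fell, H2-Ob (-1.70 ± 0.42, adjusted p = 0.026), and 1 rose, Lgmn (0.41 ± 0.09), a lysosomal protease, where 1.06% of all genes rose. In Rev-nAAC against nAAC, 0, 5 and 5 accessory genes were lower, where 1.76%, 12.1% and 16.0% of all genes were. In that comparison 0, 0 and 1 were higher, and so were 122, 2136 and 2612 of all 15444 tested genes. Of the 7 genes of the complex on which Ciita acts, 0, 1 and 1 were higher in nAAC than in sham and 3, 1 and 2 lower. The shares of all genes in that comparison are those given above. Rfx5 was higher at 8 weeks (0.57 ± 0.17) and Nfyc lower at that age (-0.66 ± 0.08).

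Among 18 tested genes of interferon gamma signalling, 1, 9 and 12 were higher in nAAC than in sham at 4, 6 and 8 weeks, and 1, 2 and 1 lower. The shares of all genes were 19.5%, 24.5% and 23.8% higher and 21.2%, 23.8% and 23.5% lower. Ifngr1, a receptor chain, was higher at each age, by 0.76 ± 0.10, 0.77 ± 0.10 and 1.02 ± 0.10, and Ifngr2, the other chain, lower at each, by -0.32 ± 0.10, -0.67 ± 0.10 and -0.45 ± 0.10. Ifng, the cytokine gene, was at 0 in 28 of the 45 libraries. Among 18 type I interferon targets, 0, 18 and 15 were higher and 3, 0 and 0 lower. Ifit2, an antiviral effector, was higher by 1.36 ± 0.18 at 6 weeks and 1.39 ± 0.18 at 8 weeks. In sham 17 of these 18 fell from 4 to 6 weeks, where 9.58% of all genes fell.

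In whole tissue, fewer cells of a type and less RNA per cell cannot be told apart. Markers of the cells that carry class II were followed beside the genes. Macrophage markers were lower in nAAC than in sham in 7, 5 and 6 of 14 genes and higher in 0, 1 and 1, where 21.2%, 23.8% and 23.5% of all genes were lower. Their summed level was 440.2 to 608 CPM in sham and 315 to 439 in nAAC at 8 weeks. In sham from 6 to 8 weeks, where class II genes fell, the macrophage sum was 304 to 402 and then 440.2 to 608 CPM, with 1 of 14 markers higher and 0 lower. Among all genes 1.06% were higher and 0.771% lower in that step. Dendritic cell markers showed 0 of 10 changed, at 25.2 to 28.6 and then 22.5 to 27.5 CPM, and Flt3, Xcr1 and Clec9a were each at 0 in 3 libraries and Siglech in 5. That sum was mostly Zbtb46, at a median of 25.5 CPM over all libraries, where the other dendritic cell markers had medians of 0.0844 to 1.30 CPM. It therefore says little of the other markers. B cell markers showed 0 of 7 changed, at 1.21 to 2.21 and then 0.401 to 1.57 CPM, a list median of -0.74. In nAAC against sham, dendritic cell markers were higher in 2, 2 and 2 of 10 genes and lower in 4, 1 and 1. Among all genes 19.5%, 24.5% and 23.8% were higher and 21.2%, 23.8% and 23.5% lower.

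Among all genes 19.5%, 24.5% and 23.8% were higher in nAAC than in sham at 4, 6 and 8 weeks, and 12.2%, 8.66% and 18.3% in Rev-nAAC. B cell markers were higher in nAAC than in sham in 0, 7 and 7 of 7 genes, and in Rev-nAAC than in sham in 0, 7 and 5. Their sum in nAAC was 1.94 to 7.38, 4.63 to 18.2 and 3.08 to 7.94 CPM at 4, 6 and 8 weeks, against 2.86 to 5.05, 1.21 to 2.21 and 0.401 to 1.57 in sham. Markers of T and NK cells were higher in nAAC in 3, 6 and 1 of 9 tested genes, and their sum at 6 weeks was 2.50 to 5.83 CPM against 1.07 to 2.38 in sham. Monocyte markers were higher in 2 of 6 genes at each age, with sums in nAAC of 165 to 423, 168 to 249 and 241 to 399.8 CPM against 94.0 to 118, 55.3 to 71.5 and 71.9 to 119.9 in sham. These sums were mostly Ace, at a median of 113 CPM over the 45 libraries, where the other monocyte markers had medians of 0.0847 to 2.91 CPM. They therefore say little of the other markers. Red cell markers were higher in nAAC in 0, 6 and 4 of 6 genes, and their sum reached 10284 CPM in Rev-nAAC at 4 weeks. Cardiomyocyte markers were lower in nAAC in 4, 7 and 5 of 8 genes, with 0 higher. Their sum in nAAC was 33846 to 49899, 34834 to 40653 and 31861 to 40043 CPM. In sham it was 46560.3 to 54558, 59328 to 61579.7 and 49411 to 66139 CPM. Fibroblast markers were higher in nAAC in 3, 7 and 5 of 8 genes, with 0 lower. Endothelial markers were higher in 1, 3 and 3 of 8 genes and lower in 4, 0 and 0. Among all genes 21.2%, 23.8% and 23.5% were lower. The part of these cell types, of blood left in the tissue and of sex in the differences of the 10 genes was not tested beyond the fits given above.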

How the data were processed

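RNA from left ventricle was extracted with Trizol and made into libraries with the VAHTS Universal V6 kit, per the labels. The authors deposited one table of raw counts per gene. The submitters' processing notes name fastp 0.20.1, HISAT2 2.1.0, HTSeq 0.11.2 and GRCm38 (mm10). The annotation, the strand setting and the treatment of multi-mapping reads are not given in the sources used here.

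Counts of all 45 libraries were fitted together with edgeR 4.0.16 in R 4.3.3 (TMM, filterByExpr with a minimum count of 10, robust quasi-likelihood F test, 9 group means, 36 residual degrees of freedom). This kept 15444 of 27007 genes. P-values were Benjamini-Hochberg adjusted over all of them in each of 18 comparisons, with a threshold of 0.05. SE is the log2 fold change over the root of F, and 95% intervals use a t distribution with 36 degrees of freedom. Levels are TMM-normalised CPM. The scripts were tested on simulated data. Alternatives used DESeq2 1.42.0 and limma 3.58.1 voom with quality weights. Motif, exon and overlap positions came from RefSeq GRCm38.p6 and GENCODE on GRCm38.

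The members, lists and alternatives were chosen with earlier results of these data known. All 10 members are described in every comparison, some of them as a range. Listed genes are named if among the 4 with the smallest p of those called, and like genes are the 5 with the highest r for B2m, Nlrc5, Cd74 and Ciita, of which 1 is not reported here. Values of a few further genes (Dexi, Patl2, H2-DMa, Psmb9 at 4 weeks) were added after the values were seen. The closest pair of libraries, sham 4 weeks replicates 3 and 5, still differed 8.106 times more than sampling noise (chi-square per degree of freedom), so none was merged. Library totals ran from 31586082 to 35965976 counts. The SEs of Nlrc5 (0.35 to 0.37 between groups) and Ciita (0.33 to 0.37) are the largest of the 10 genes.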

Additional observations from a re-analysis of the deposited data

Results flagged for a closer look

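Each group of 5 libraries was screened for a library whose gap to its nearest neighbour took more of the group's range than Dixon's 95% critical value, and chance alone flags about 1 in 20 groups. Of 90 gene and group combinations 10 were flagged, where chance gives 4.50. In sham at 8 weeks, replicate 3 was high for B2m (271 CPM, next 166), Tap1 (15.0, next 8.62), Nlrc5 (8.50, next 4.00) and Ciita (1.40, next 0.750), so that 4 of the 10 flags came from 1 library. In Rev-nAAC at 6 weeks, replicate 1 was high for B2m (604, next 386), Tap1 (32.7, next 21.1) and Tap2 (45.4, next 38.3). In nAAC at 8 weeks, replicate 4 was high for Cd74 (129.6, next 88.1) and H2-Eb1 (43.4, next 29.4). In nAAC at 4 weeks, replicate 5 was high for B2m (671, next 461). These genes move together within groups, so the flags are not independent.

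The difference between nAAC and sham differed between ages by an edgeR interaction test in 4 cases. It was larger for Ciita at 6 than at 4 weeks (1.45, adjusted p = 0.034) and at 8 than at 4 weeks (2.09, adjusted p = 0.0043), and larger at 8 than at 4 weeks for H2-Aa (1.27, adjusted p = 0.014) and H2-Ab1 (1.18, adjusted p = 0.024).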

How the results depend on the processing

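The 180 results of single genes (10 genes in 18 comparisons) were recomputed with each alternative, 3900 values in all. Of these, 3748 stayed on their side of the threshold, 3568 of them with their sign, 112 lost a call, 40 gained one and 0 turned a call round. The sign of 63 uncalled results changed in some alternative, 180 values in all. RLE scaling in place of TMM and the count of nAAC 4 weeks replicate 1 as sham moved no count of called members by over 1.5 times. Counts that moved further are given here as called members against the main count, and the cause was not tested. Without a filter on low counts, Rev-nAAC against sham gave 2 against 4 at 6 weeks and 3 against 8 at 8 weeks, sham at 6 against 4 weeks and Rev-nAAC at 8 against 6 weeks 0 against 1, and the nAAC effect at 6 against 4 weeks 0 against 1. With sex as a covariate, Rev-nAAC against sham at 8 weeks gave 4 against 8. With male libraries only, Rev-nAAC against nAAC at 8 weeks, Rev-nAAC at 8 against 6 weeks and the nAAC effect at 6 against 4 weeks gave 0 against 1, and the nAAC effect at 8 against 4 weeks 1 against 3. With only the groups compared in the fit, sham at 6 against 4 weeks and the nAAC effect at 6 against 4 weeks gave 2 against 1 and Rev-nAAC at 8 against 6 weeks 0 against 1. limma voom gave 2 against 1 for sham at 6 against 4 weeks, Rev-nAAC at 8 against 6 weeks and the nAAC effect at 6 against 4 weeks, 2 against 0 for the nAAC effect at 8 against 6 weeks and 6 against 3 at 8 against 4 weeks. DESeq2 gave 5 against 1 for Rev-nAAC at 8 against 6 weeks and 2 against 1 for the nAAC effect at 6 against 4 weeks. Without the 6 libraries that stood apart, Rev-nAAC at 8 against 6 weeks gave 0 against 1, the nAAC effect at 6 against 4 weeks 2 against 1 and at 8 against 4 weeks 5 against 3.

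Same-numbered libraries did not pair, with at most 2 of 5 correlations over 0.1 in any comparison. With the replicate block, Rev-nAAC at 8 against 6 weeks gave 0 against 1, and no other count moved by over 1.5 times. Leaving out each library in turn, counts for nAAC against sham ran from 3 to 4, 6 to 6 and 9 to 10 at 4, 6 and 8 weeks, for Rev-nAAC against sham from 2 to 4, 1 to 5 and 3 to 8, and for Rev-nAAC against nAAC from 0 to 0, 0 to 1 and 1 to 1. They ran from 0 to 1 for sham at 6 against 4 weeks, 3 to 4 for sham at 8 against 6 weeks and 0 to 4 for Rev-nAAC at 8 against 6 weeks. For the nAAC effect they ran from 0 to 2 at 6 against 4 weeks, 0 to 0 at 8 against 6 weeks and 2 to 5 at 8 against 4 weeks. Ciita had the fewest reads of the 10 genes, as few as 8 counts in a library, and its SEs and those of Nlrc5 were the largest.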

Other observations

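Fat cell markers summed to 187 CPM in 1 Rev-nAAC library at 8 weeks, where no sham library at that age exceeded 35.5 CPM. Macrophage markers were lower in Rev-nAAC than in sham at 8 weeks in 12 of 14 genes and higher in 1, with a list median of -0.91, where 17.3% of all genes were lower, at the age when 8 of the 10 antigen presentation genes were higher. The ratio of B2m to Cd74 counts was 1.53 to 2.20 in sham at 6 weeks, the lowest range of the 9 groups, and 2.51 to 4.96 in sham at 8 weeks.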
